A study of Mus musculus with 4 samples.

Results

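Lysosomes and the proton pump that acidifies them were followed here through 33 genes among the 31053 listed in the count tables of mouse hematopoietic stem cells. The genes were chosen by name as known parts of the lysosome: 8 cathepsins, 5 lysosomal membrane proteins, 4 hydrolases and cofactors, 6 genes of the membrane sector (V0) of the vacuolar ATPase (V-ATPase) and its accessory subunits, 6 genes of its catalytic sector (V1) and 4 regulators. The rule itself used no measured value, and all 33 were found by symbol in each of the 4 libraries. The libraries came from long-term hematopoietic stem cells (LT-HSC), sorted as CD150+, and short-term hematopoietic stem cells (ST-HSC), sorted as CD150-, with 1 library of each kind from each of 2 mice; they are called LT1 and ST1 for mouse 1 and LT2 and ST2 for mouse 2. Both kinds lacked lineage markers and CD48 and carried Kit and Sca-1, per the series record. All animals were 14-week-old males of the strain Tie2-bG-Micm x RosaYFP, so the transgene under Tie2 sequences and the reporter at the Rosa locus were shared by both gates. The sources used here do not state whether the transgene had been induced. RNA was captured with the 10x Chromium 3' v3 kit, in which each RNA molecule receives a unique molecular identifier (UMI), and UMIs per gene and cell barcode were deposited.

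LT1 differed from the rest in depth, since 22 of its 39553 barcodes passed the cell filter (1000 or more genes, 2000 or more UMIs, no more than 10% mitochondrial UMIs). The other libraries kept 1217 to 2633 cells. Kept cells held 115305 UMIs in LT1 and 13249904 to 27870823 in the others, so 3 counts, used as the detection floor, were 26 counts per 1e6 UMIs (CPM) there and 0.108 to 0.226 CPM elsewhere. Gate results are therefore also given with all its barcodes, for the members on which they turn. The median of those barcodes was 285 UMIs, and how many held a cell and not free RNA was not tested. Slamf1, which encodes CD150, followed the labels, at 34.7 and 21.9 CPM in LT-HSC and 0.825 and 1.40 CPM in ST-HSC. Cd48, whose protein both gates should lack, was not equal between them, at 0 and 2.19 CPM in LT-HSC and 13 and 18 CPM in ST-HSC (-2.82, SE 0.34, edgeR adjusted p = 2.35e-13). All 7 stem and progenitor markers were detected in each library (1476 to 1920 CPM in sum), and all 6 macrophage markers together reached 8.8 CPM at most. Kept cells of the libraries shared 1 barcode between the ST-HSC libraries and 1 between LT-HSC and ST2. With 2 libraries a gate, p-values measure the spread between those libraries.

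The lysosome is the acidic compartment in which cells break down proteins, lipids and sugars delivered by endocytosis and autophagy. Its lumen is acidified by the V-ATPase, whose V1 sector hydrolyses ATP in the cytosol while V0 carries protons across the membrane. Transcription factors of the MiT/TFE family (TFEB, TFE3 and MITF) bind E-box sequences in the promoters of many lysosomal genes, known together as the CLEAR network, and lysosomal activity in hematopoietic stem cells has been linked to quiescence.

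Promoter windows, from 250 bases before to 50 bases after an annotated start, were taken from RefSeq on the build GRCm38.p6 and were found for 29 of the 33 genes (38 windows); Ctsb, Ctsh, Atp6v1b2 and Atp6v1h were without an entry. They were searched for the E-box core CACGTG and for its longer form TCACGTGA. Both are their own reverse complements, so a match counts for both strands, and the longer form holds the core. CACGTG stood in a window of 10 of the 29 genes (34.5%), against 8.09% of all 27025 genes with a window and 11.8% of those tested between the gates. TCACGTGA stood in 7 of the 29 (24.1%): Ctsa, Ctsd, Gla, Atp6v0d1, Atp6v0e, Atp6v1a and Mcoln1. The share was 1.12% of all genes and 2.25% of those tested. The windows were also searched for a 10-base form, which adds G before and C after the longer form. This 10-base form stood in 0 of the 29 genes, against 0.370% of all genes and 0.840% of those tested. At shares this low, 0 of 29 genes cannot show that the members lack it more often than other genes. A match describes the letters of the window and not binding by a factor. The 250 bases before the start are printed 5' to 3' on the strand of the gene for 4 genes with the core (Ctsa, Ctsd, Lamp1 and Atp6v1a) and for Ctss and Ctsl, the members with the largest fitted change between the gates and in G2/M cells. Capitals mark each CACGTG, or TCACGTGA where the longer form is present.
Ctsa, chr2:164833523-164833772, plus strand: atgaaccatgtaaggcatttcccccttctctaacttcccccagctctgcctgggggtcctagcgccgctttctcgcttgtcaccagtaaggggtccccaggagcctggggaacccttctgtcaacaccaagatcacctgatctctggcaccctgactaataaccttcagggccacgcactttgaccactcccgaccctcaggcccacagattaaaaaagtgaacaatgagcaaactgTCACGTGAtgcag
Ctsd, chr7:142387828-142388077, minus strand: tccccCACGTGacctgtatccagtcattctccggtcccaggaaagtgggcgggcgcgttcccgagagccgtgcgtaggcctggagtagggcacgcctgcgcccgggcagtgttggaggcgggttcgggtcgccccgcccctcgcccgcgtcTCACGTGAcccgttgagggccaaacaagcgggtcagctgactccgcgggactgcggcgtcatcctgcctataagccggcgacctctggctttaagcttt
Lamp1, chr8:13158911-13159160, plus strand: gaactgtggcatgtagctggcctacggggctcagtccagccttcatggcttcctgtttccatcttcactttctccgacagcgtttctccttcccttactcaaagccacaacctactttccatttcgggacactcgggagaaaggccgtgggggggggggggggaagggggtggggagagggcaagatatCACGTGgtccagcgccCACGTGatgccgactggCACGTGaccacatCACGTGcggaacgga
Atp6v1a, chr16:44139260-44139509, minus strand: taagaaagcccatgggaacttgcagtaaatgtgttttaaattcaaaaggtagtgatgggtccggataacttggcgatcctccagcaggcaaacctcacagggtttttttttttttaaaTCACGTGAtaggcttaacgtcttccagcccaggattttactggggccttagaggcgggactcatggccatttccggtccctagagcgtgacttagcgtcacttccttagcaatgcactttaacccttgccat
Ctsl, chr13:64370521-64370770, minus strand: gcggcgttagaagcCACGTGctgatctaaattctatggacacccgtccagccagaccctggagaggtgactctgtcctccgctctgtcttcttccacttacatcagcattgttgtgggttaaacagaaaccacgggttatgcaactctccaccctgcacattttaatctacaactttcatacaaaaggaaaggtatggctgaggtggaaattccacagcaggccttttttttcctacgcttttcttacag
Ctss, chr3:95526536-95526785, plus strand: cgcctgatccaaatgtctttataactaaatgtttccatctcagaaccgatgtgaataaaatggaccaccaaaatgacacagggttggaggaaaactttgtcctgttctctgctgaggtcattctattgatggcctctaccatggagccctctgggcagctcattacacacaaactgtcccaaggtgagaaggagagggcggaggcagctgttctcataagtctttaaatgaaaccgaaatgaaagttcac

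Lamp1 carried 4 copies of CACGTG within its 250 bases, and Ctsd carried 2, the copy nearer the start in the longer form. In the Ctsa window a second TCACGTGA lay 5 bases past the start, outside the stretch printed. The other RefSeq window of Ctsa, chr2:164832622-164832921, held no CACGTG. The core in the Ctsl window lay 236 bases before the annotated start, and the Ctss window held none. These starts are those of RefSeq. In GENCODE vM21 the genes Ctsa (from 164832873), Ctsl (from 64370890) and Atp6v1a (from 44139705) begin before the stretch printed. Ctsd (from 142388038) begins within it. Whether these matches lie upstream of the gene thus depends on the start chosen.

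Together the 33 genes took 0.219% of the UMIs in LT1 (252 UMIs), 0.277% in LT2, 0.263% in ST1 and 0.295% in ST2. Over all barcodes of LT1 the share was 0.241%. Every kept cell held at least 1 UMI of the set. The median cell held 30 such UMIs in LT2, 27 in ST1 and 22 in ST2, and the share of a cell's UMIs ran from 0.202% at the 10th percentile to 0.369% at the 90th in LT2. The highest UMI counts belonged to Atp6v1f, a V1 subunit of the stalk, the membrane proteins Laptm4a and Laptm5, and the V0 subunits Atp6v0b and Atp6v0e. Each lay at 139 CPM or more in all 4 libraries, as the plot of levels by library shows. The 4 regulators lay at 5.96 to 12 CPM in LT2 and at 6.82 to 11.4 CPM in both ST-HSC libraries, and Gla, which encodes the alpha-galactosidase A that cleaves glycolipids, at 2.51 to 3.27 CPM in the same 3 libraries. A 3' tag is read once per molecule, so these levels carry no length scaling, but how well each transcript is captured was not measured. Atp6v0c, the proteolipid of the V0 ring, was listed at 1.06 to 3.30 CPM in the 3 deep libraries. Processed pseudogenes of it are in the annotation and not among the genes counted, and reads that match both can be lost, so its level is uncertain.

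**Figure D1:**
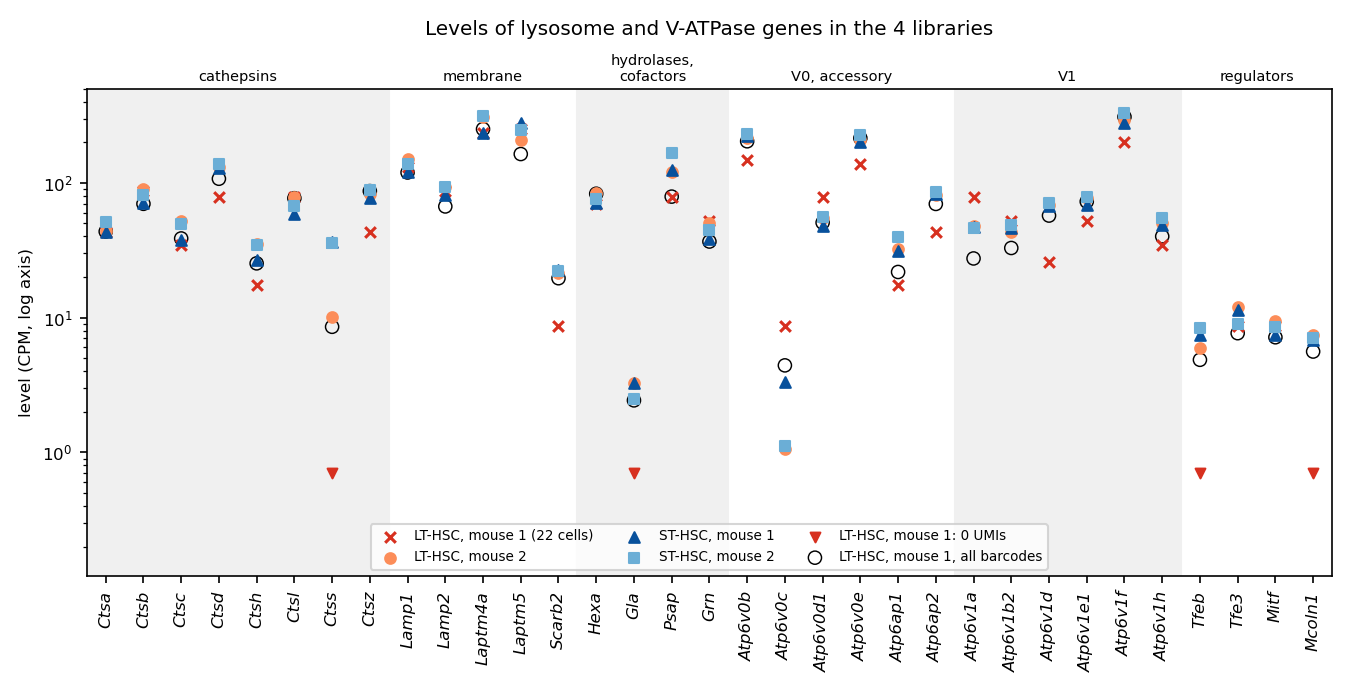
Level of each of the 33 genes (CPM, log axis) in the 4 libraries, grouped by role; each point is 1 library, open circles are all barcodes of LT1, and red triangles at the bottom mark 0 UMIs among its 22 cells. Most genes lie within a narrow range across libraries, while Ctss lies at 36.3 and 36.0 CPM in ST-HSC and 10.1 CPM in LT2.

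The comparison of the gates asked which of these genes differ between LT-HSC and ST-HSC. A single member passed the test: Ctss, the gene of cathepsin S, an endopeptidase of antigen-presenting cells, was lower in LT-HSC. The other 32 genes, including all pump subunits and all 4 regulators, did not pass. Of the 33 genes tested, 1 (Ctss) was called by edgeR's quasi-likelihood test at a Benjamini-Hochberg adjusted p under 0.05, against 6.72% of the 12656 genes tested 3.60% called higher in LT-HSC and 3.13% called higher in ST-HSC. With all barcodes of LT1 it was again 1 of 33, where 8.87% of all genes were called. The median log2 fold change (LT-HSC minus ST-HSC) was -0.07 over the 33 genes and -0.02 over all genes tested.

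Among the cathepsins, the lysosomal proteases, Ctss had 0 UMIs in the 22 cells of LT1 and lay at 10.1 CPM in LT2, 36.3 CPM in ST1 and 36.0 CPM in ST2. The gates did not overlap. The log2 fold change was -1.87 (SE 0.24, edgeR adjusted p = 9.25e-12). Over all barcodes of LT1 Ctss lay at 8.54 CPM, near the 10.1 CPM of LT2, and the log2 fold change was -1.85 (SE 0.15, edgeR adjusted p = 1.58e-05). At the level of ST1 the 22 cells would have held 4.19 Ctss UMIs, and their 0 UMIs put them at least 1.40-fold lower, counted against the floor of 3 counts in that library. This bound covers counting error only, and not the uneven spread of Ctss between cells given below. DESeq2 gave -2.11 with an adjusted p of 0.847 and called 0.427% of genes. Without LT2 the call ended (edgeR adjusted p = 0.408), while with all barcodes of the first library it held without LT2 (-1.87, edgeR adjusted p = 0.000576). Ctss lies on chromosome 3 from 95526786 to 95556403 on the plus strand.

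Macrophages and monocytes carry much cathepsin S, so the Ctss UMIs were located among the cells. Cells with 3 or more UMIs of macrophage markers held 3.26% of the Ctss UMIs in ST1, 0.746% in LT2 and 0.615% in ST2. Cells with 0.5% or more of their UMIs from neutrophil markers held 0.691%, 0 and 1.02%. Without both kinds of cell the log2 fold change was -1.85 (edgeR adjusted p = 1.91e-13). In sum the neutrophil markers lay at 26 (3 UMIs) and 142 CPM in LT-HSC and at 570 and 1872 CPM in ST-HSC. In LT1 5 of 8 (Camp, Ngp, Ltf, Elane and Mpo) were at 0. The monocyte and dendritic markers lay at 156 (18 UMIs) and 362 CPM against 347 and 326 CPM, with Csf1r, Ly6c2, Itgax and Siglech at 0 in LT1. At the depth of LT1 a 0 for a single marker says little. In LT2 Itgax and Siglech were at 0 too, and so were Csf1r and Ly6c2 outside its G2/M cells. Both ST-HSC libraries held UMIs of all 7 monocyte and dendritic markers. No rule for monocytes was applied, and their part in the Ctss difference was not tested. Ctss UMIs were unevenly spread over the kept cells. The variance of its UMIs relative to that given by cell depth alone was 1.77 in LT2, 2.39 in ST1 and 2.96 in ST2, above 98.2% or more of the genes of like level in each library.

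Ctsl, the gene of cathepsin L, lay at 78.1 and 78.3 CPM in LT1 and LT2 and at 58.5 and 67.2 CPM in ST-HSC. Both LT-HSC libraries were above both ST-HSC libraries, but the difference did not pass the test (0.31, SE 0.19, 95% interval -0.06 to 0.68, edgeR adjusted p = 0.55). A gene on the opposite strand, Gm47123, overlaps Ctsl, and the sources used here do not state whether counting used strand. Other members, Ctsb, Lamp1 and Atp6v0b among them, are also overlapped on the opposite strand. Ctsd, the aspartic protease cathepsin D, lay at 78.1 and 130 CPM in LT-HSC and at 129 and 139 CPM in ST-HSC, with overlap (-0.13, SE 0.19). The gene Gm49369 overlaps Ctsd on the same strand, and its part in the counts of Ctsd was not tested. Ctsc, which encodes the dipeptidyl peptidase that activates granule proteases, lay at 34.7 and 52.1 CPM against 38.0 and 49.5 CPM (0.21, SE 0.20). Fitted values weight libraries by their counts and so follow LT2. The cathepsins Ctsa, Ctsb, Ctsh and Ctsz differed by -0.12 to 0.24, and the 95% interval of each included 0.

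Of the membrane proteins, Lamp1, a heavily glycosylated protein of the limiting membrane, lay at 130 and 149 CPM in LT-HSC and 120 and 139 CPM in ST-HSC (0.16, SE 0.19). Laptm4a, a small transmembrane protein of late endosomes, lay at 234 and 309 CPM against 235 and 311 CPM, so that libraries of the same mouse lay close to each other (0.06, SE 0.19). Laptm5, its relative in blood cells, lay at 252 and 207 CPM against 278 and 248 CPM. The ranges of Laptm5 overlapped on kept cells (-0.30, SE 0.20), and with all barcodes of LT1, at 164 CPM, they did not (-0.40, SE 0.17, edgeR adjusted p = 0.2). Lamp2 and Scarb2, the receptor that carries beta-glucocerebrosidase to lysosomes, differed by 0.08 and -0.08. Among the hydrolases and cofactors, Psap, the precursor of the saposins that help degrade sphingolipids, lay at 78.1 and 121 CPM in LT-HSC and at 125 and 167 CPM in ST-HSC. The Psap groups did not overlap, and the difference did not pass the test (-0.35, SE 0.19, edgeR adjusted p = 0.422). Grn, which encodes progranulin, lay at 52.0 and 50.2 CPM against 38.1 and 44.5 CPM, again without overlap (0.28, SE 0.21), but with all barcodes LT1 lay at 36.7 CPM and the ranges overlapped.

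No pump gene passed the test between the gates. Atp6v0b of the V0 ring lay at 147 and 215 CPM in LT-HSC and 223 and 232 CPM in ST-HSC (-0.20, SE 0.19). Atp6v0e, a small V0 subunit, lay at 139 and 208 CPM against 202 and 225 CPM (-0.16, SE 0.19). The accessory subunit Atp6ap2, also known as the prorenin receptor, lay at 43.4 and 81.3 CPM against 83.0 and 85.3 CPM (-0.12, SE 0.19). The gates did not overlap for Atp6v0b and Atp6ap2 and overlapped for Atp6v0e. In each of the 3 genes the lowest value was that of the 22 cells of LT1, and over all its barcodes the 3 genes lay at 203, 215 and 69.8 CPM. Atp6v1f lay at 199 and 291 CPM in LT-HSC and 279 and 332 CPM in ST-HSC (-0.22, SE 0.20), and Atp6v1b2, which encodes the nucleotide-binding B subunit of V1, at 52.0 and 43.3 CPM against 46.4 and 48.7 CPM (-0.12, SE 0.21). Their ranges overlapped. The other V0, accessory and V1 genes apart from Atp6v0c differed by -0.18 to 0.14 on the log2 scale. Atp6v0c, with 1 UMI in the 22 cells, had no stable direction: it gave -1.01 (SE 0.53, edgeR adjusted p = 0.40), 0.38 with all barcodes of LT1, 0.04 with the mouse as a block and 0.09 by DESeq2, and its mean was higher in LT-HSC (4.86 against 2.20 CPM).

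Of the regulators, Tfeb had 0 UMIs in the 22 cells and lay at 5.96 CPM in LT2 and at 7.46 and 8.33 CPM in ST-HSC (-0.43, SE 0.32, edgeR adjusted p = 0.766). Tfe3 lay at 8.67 (1 UMI) and 12 CPM against 11.4 and 8.92 CPM (0.21, SE 0.27). These levels are under the floor of LT1, so that library could hardly show them. Mitf and Mcoln1, which encodes the calcium channel mucolipin-1 of the lysosomal membrane, differed by 0.23 and 0.06. The 95% interval of the edgeR gate difference lay within 1 on the log2 scale for 30 of the 33 genes, all but Ctss, Atp6v0c and Tfeb. The plot of gate differences shows these intervals. The SE of DESeq2 were larger, from 0.28 for Laptm5 to 1.90 for Gla, and its intervals were not computed. The count of 30 therefore holds for the edgeR fit only. The ranges of the gates did not overlap for 11 of the 33 genes, 5 of them higher in LT-HSC, against 38.7% of all genes tested. With all barcodes of LT1 they did not overlap for 10 of 33, against 45.7%.

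**Figure D2:**
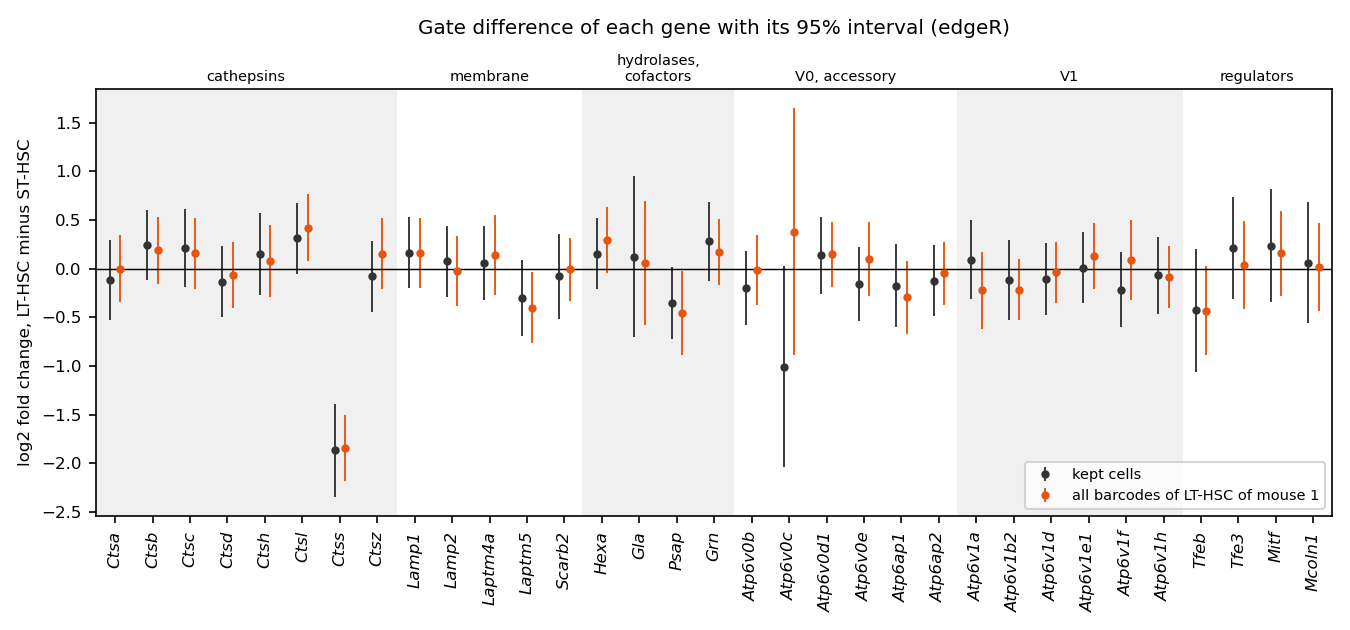
Gate difference of each gene as log2 fold change, LT-HSC minus ST-HSC, with its 95% interval from the edgeR fit, for kept cells and with all barcodes of LT1. Ctss lies at -1.87 and -1.85, and the intervals of 30 of the 33 genes on kept cells stay within 1.

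Dividing cells were taken as those with at least 5 UMIs and at least 0.1% of their UMIs from 25 genes of G2 and M phase, none of which is a member. They numbered 52 in LT2, 120 in ST1 and 60 in ST2, and LT1, with 3, was left out of the cycle comparisons. Within each library their UMIs were summed and compared with those of the other kept cells, with the library as a block. Ctsl was lower in G2/M cells in all 3 libraries, and Laptm4a, Ctsd and Atp6v1f were lower by smaller amounts. Atp6ap2, Ctsc and Lamp1 were higher. Of 32 members tested (Atp6v0c fell below the filter), edgeR called 3 higher and 4 lower, 7 in all, where 31.1% of all genes were called, 17.3% higher and 13.8% lower. The medians were -0.04 over the members and -0.06 over all genes. DESeq2 called 5 members (Ctsl and Laptm4a lower, Atp6ap2, Lamp1 and Ctsc higher), against 18.7% of all genes, 13% higher and 5.75% lower.

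Ctsl lay at 22.9 CPM in G2/M cells and 83.1 CPM in other cells of LT2. It lay at 29.6 against 60.9 CPM in ST1 and at 28.0 against 69.6 CPM in ST2. The 3 G2/M values were all below the 3 other values. The log2 fold change was -1.32 (SE 0.15, edgeR adjusted p = 7.73e-07), and it was called under each of 12 alternative settings, at -1.61 to -0.72. The value of -0.72 came from S phase cells (described below) in place of G2/M cells. Laptm4a lay at 207 against 318, 188 against 239 and 253 against 314 CPM in the same order, lower in each library (-0.41, SE 0.10, edgeR adjusted p = 0.00279). Among cells of 5000 to 20000 UMIs its call ended (-0.25, edgeR adjusted p = 0.0523). Ctsd lay at 106 against 132, 109 against 130 and 118 against 140 CPM, so its G2/M values were all below its other values (-0.26, SE 0.09, edgeR adjusted p = 0.0321). Atp6v1f lay at 257 against 294, 229 against 284 and 275 against 336 CPM (-0.25, SE 0.09, edgeR adjusted p = 0.0325). The calls of Ctsd and Atp6v1f each ended under 6 of 12 alternatives, DESeq2 and the S phase cells among them.

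Atp6ap2 lay at 99.3 against 79.7 CPM in LT2, 116 against 80.3 CPM in ST1 and 111 against 83.7 CPM in ST2, with no overlap (0.44, SE 0.09, edgeR adjusted p = 0.000959). Lamp1 lay at 155 against 149, 173 against 116 and 193 against 135 CPM (0.41, SE 0.10, edgeR adjusted p = 0.00532). The difference of Lamp1 was small in LT2. In the same depth window its call ended (0.15, edgeR adjusted p = 0.388), and so it did without ST1 (0.29, edgeR adjusted p = 0.0928). Ctsc lay at 57.3 against 51.6, 43.3 against 37.5 and 113 against 45.6 CPM (0.56, SE 0.17, edgeR adjusted p = 0.0158). Without ST2 the Ctsc difference was 0.18 (edgeR adjusted p = 0.401). In that library the 5 erythroid markers summed to 3450 CPM in G2/M cells and 768 CPM in other cells, and their part in the Ctsc result was not tested.

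G2/M cells were deeper, with a median of 20195.5 against 10203 UMIs in LT2, 17108 against 9780 in ST1 and 11628 against 7465 in ST2. The 7 stem and progenitor markers summed to 906 against 1525, 1303 against 1971 and 1199 against 1938 CPM in the same order. The 8 neutrophil markers summed to 3137 against 358 CPM in ST1 to 2.9 against 154 CPM in LT2 and to 1774 against 1878 CPM in ST2. The 6 cells of ST1 passing the neutrophil rule held more Lamp1 (401 against 118 CPM) and Atp6ap2 (280 against 81.8 CPM) than other cells. Without the cells of both rules Lamp1 was 0.28 (edgeR adjusted p = 0.0184), Atp6ap2 0.34 (edgeR adjusted p = 0.00616), Ctsc 0.47 (edgeR adjusted p = 0.00978) and Ctsl -1.31 (edgeR adjusted p = 2.34e-10). The hydrolases and cofactors gave no call. Psap (0.23), Hexa (0.25) and Grn (0.28) had edgeR adjusted p of 0.083, 0.0643 and 0.110. No regulator was called, and Mitf, at 4.78, 5.17 and 3.82 CPM in G2/M cells, had 3 to 11 UMIs there.

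**Figure D3:**
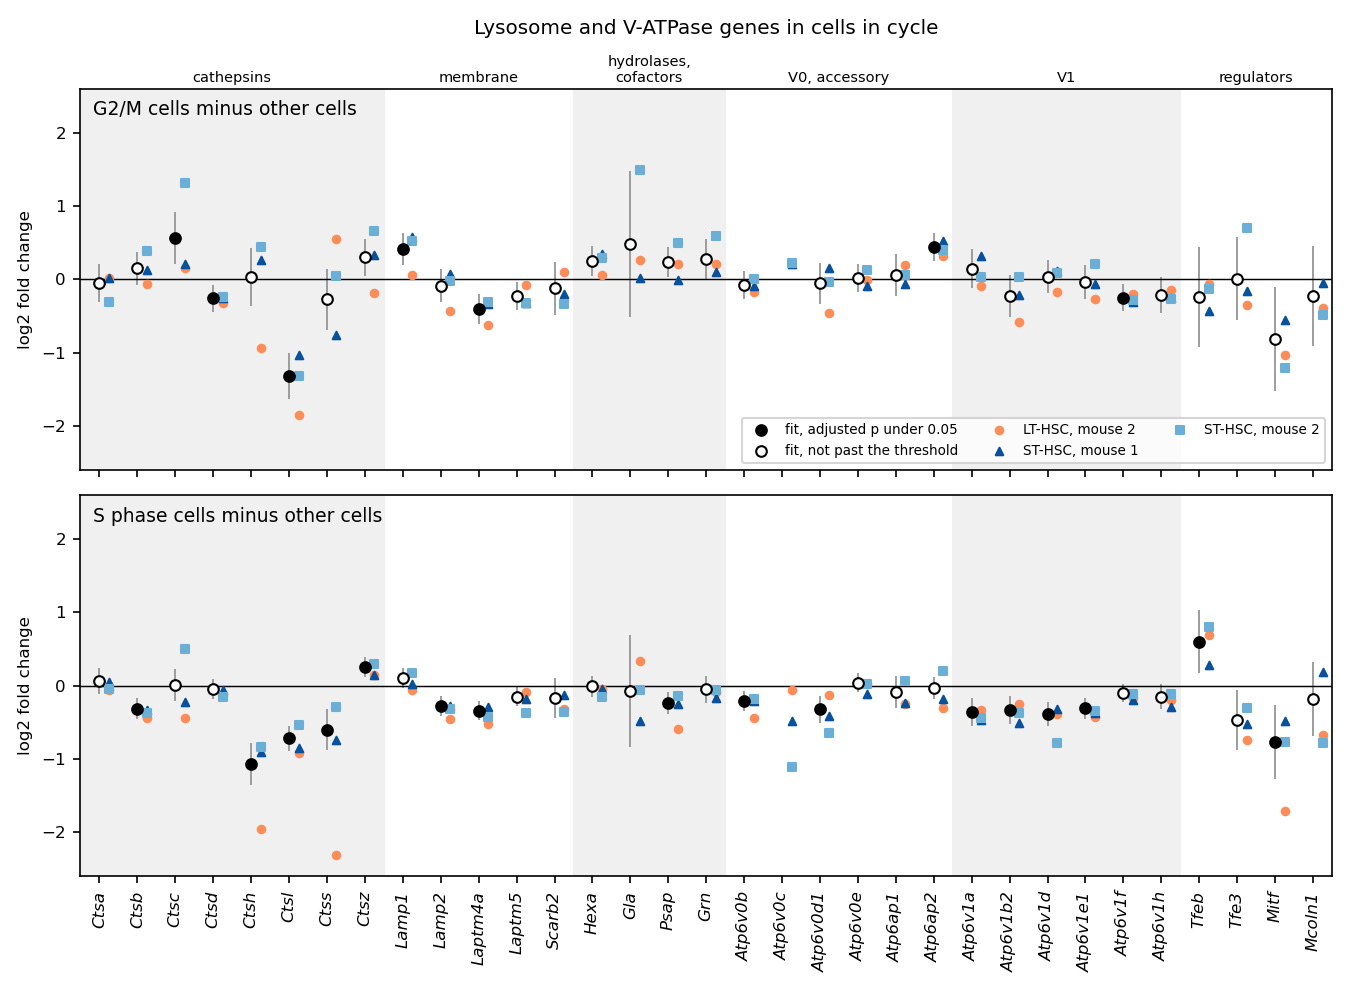
Log2 fold change of each member in G2/M cells (upper panel) and S phase cells (lower panel) against other cells, with the 95% interval of the edgeR fit (black points, filled where past the threshold) and the values of the 3 libraries (coloured points). Ctsl lies at -1.32 and -0.72, and 14 of the 16 filled points in the lower panel lie below 0.

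S phase cells were described next as the 10% of the cells outside G2/M, in each library, with the highest share of UMIs from 25 genes of DNA replication, none of them a member. This class is a range on a score and not a cell type, and 23 to 79 cells per library lay within 0.02% of UMIs of the limit. It held 117 cells in LT2, 252 in ST1 and 165 in ST2. Their median share of UMIs from the replication genes was 0.279%, 0.264% and 0.222%. The G2/M cells lay at 0.453%, 0.174% and 0.186% in the same order. The G2/M class thus also held cells rich in replication genes, in LT2 above the level of the S phase class. Most of the members that changed were lower in S phase cells: cathepsins, pump subunits of both sectors, Laptm4a, Lamp2 and Psap. Of 32 members tested edgeR called 2 higher and 14 lower, where 40.1% of all genes were called, 21.7% higher and 18.4% lower. The medians were -0.18 over the members and -0.03 over all genes. With plain totals in place of TMM scaling, higher calls made up 43.3% and not 54.1% of the calls over all genes, and 18 members were called lower. The CPM of 22 of the 32 members was lower in S phase cells in all 3 libraries, against 38.3% of all genes tested, and that of 2 was higher in all 3, against 25.6%.

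The members together took 0.236% of UMIs in S phase cells and 0.287% in other cells of LT2. The shares were 0.232% and 0.270% in ST1 and 0.264% and 0.300% in ST2. S phase cells were also deeper, at medians of 15705 against 9949.5, 14665 against 9522 and 10698 against 7233 UMIs. Their stem and progenitor markers summed to 1065 against 1605, 1581 against 2036 and 1428 against 2023 CPM. In ST2 the 4 basophil and mast cell markers summed to 581 against 5.0 CPM. The part of these markers was not tested. Among cells of 5000 to 20000 UMIs, 2 members were called higher and 16 lower. S phase cells stayed deeper in this window, at medians of 15540 against 10112, 14261 against 9577 and 10695.5 against 7401.5 UMIs. The window thus did not match the depth of the classes.

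Ctsh, an aminopeptidase among the cathepsins, lay at 10.6 CPM in S phase cells and 40.9 CPM in other cells of LT2. It lay at 15.2 against 28.5 CPM in ST1 and 20.3 against 36.1 CPM in ST2, so all 3 S phase values were below all other values (-1.06, SE 0.14, edgeR adjusted p = 2.50e-08). Ctsl lay at 47.2 against 89.3, 36.1 against 65.0 and 50 against 72.8 CPM (-0.72, SE 0.08, edgeR adjusted p = 7.30e-10). In each of the 3 libraries Ctsl was highest in the cells outside both classes, lower in S phase cells and lowest in G2/M cells, as the plot by cycle class shows. Because the G2/M class also held cells rich in replication genes, this is an order of classes and not of time. Ctss lay at 2.22 (4 UMIs) against 11.1, 23.9 against 39.8 and 30.2 against 36.9 CPM (-0.60, SE 0.14, edgeR adjusted p = 0.000449). Ctsb, which encodes the cathepsin B protease, was lower by -0.31 (SE 0.07, edgeR adjusted p = 0.000407). Ctsz, a carboxypeptidase, was higher (0.26, SE 0.07, edgeR adjusted p = 0.00148), at 90.6 against 81.6, 82.0 against 74.2 and 101 against 82.3 CPM.

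**Figure D4:**
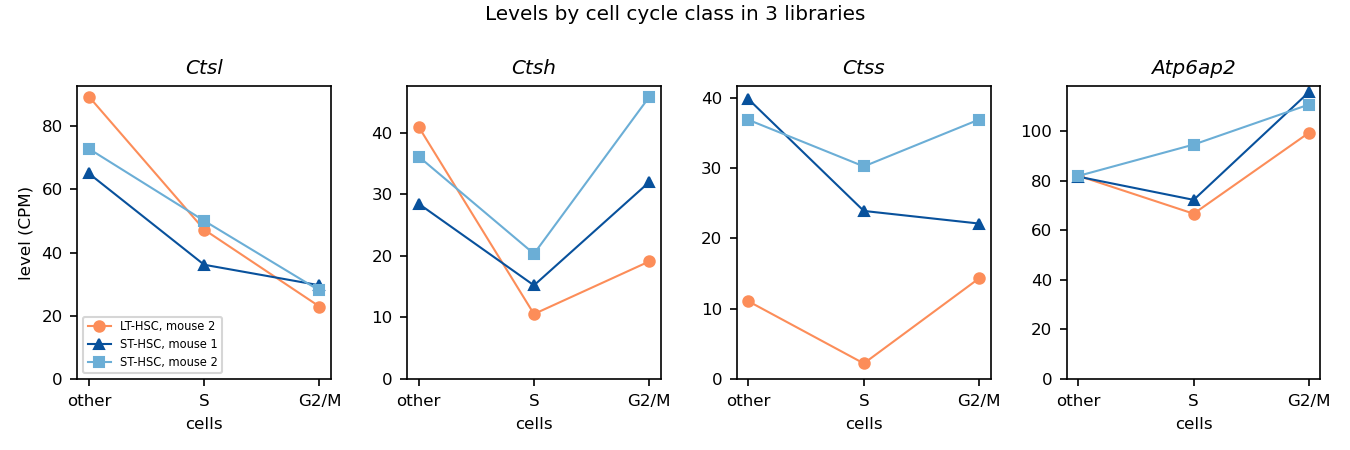
Levels (CPM, axis from 0) of Ctsl, Ctsh, Ctss and Atp6ap2 in cells outside both classes, S phase cells and G2/M cells, with 1 line for each of 3 libraries. Ctsl falls from 65.0 to 89.3 CPM in other cells to 22.9 to 29.6 CPM in G2/M cells, while Ctsh is low in S phase cells and Atp6ap2 is highest in G2/M cells.

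Of the V1 genes 4 were lower in S phase cells. Atp6v1a, the catalytic A subunit, lay at 39.5 against 49.4, 34.8 against 48.2 and 35.2 against 47.8 CPM (-0.36, SE 0.09, edgeR adjusted p = 0.00170). Atp6v1d, of the central stalk, was lower by -0.39 (edgeR adjusted p = 0.000119), Atp6v1b2 by -0.33 (edgeR adjusted p = 0.00367) and Atp6v1e1, of the peripheral stalk, by -0.31 (edgeR adjusted p = 0.000611). Atp6v1f and Atp6v1h did not pass. The V0 genes Atp6v0d1 (-0.32, edgeR adjusted p = 0.00374) and Atp6v0b (-0.20, edgeR adjusted p = 0.0131) were lower, while Atp6v0e, Atp6ap1 and Atp6ap2 did not pass. Laptm4a lay at 233 against 333, 200 against 245 and 243 against 326 CPM, lower in each library (-0.34, SE 0.06, edgeR adjusted p = 2.21e-05). Lamp2, a receptor of chaperone-mediated autophagy, was lower by -0.27 (edgeR adjusted p = 0.00120) and Psap by -0.24 (edgeR adjusted p = 0.00975).

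Among the regulators Tfeb was higher in S phase cells, at 8.89 against 5.48, 8.97 against 7.39 and 13.2 against 7.57 CPM (0.60, SE 0.22, edgeR adjusted p = 0.0219), from 16, 33 and 24 UMIs. Mitf was lower, at 3.33 against 10.9, 5.71 against 7.93 and 5.5 against 9.40 CPM (-0.77, SE 0.25, edgeR adjusted p = 0.0113), from 6, 21 and 10 UMIs. Leaving out 1 library ended several S phase calls: those of Mitf (-0.51), Psap (-0.13) and Atp6v0b (-0.12) without LT2, those of Atp6v1a (-0.32), Atp6v1b2 (-0.25) and Atp6v0d1 (-0.31) without ST1, and those of Tfeb (0.46), Ctsz (0.20) and Atp6v0d1 (-0.24) without ST2. The edgeR adjusted p of these lay between 0.0757 and 0.201. DESeq2 called 6 of the 32 members, all lower (Ctsb, Ctsh, Ctsl, Ctss, Laptm4a and Atp6v1d), and 20.6% of all genes, 7.08% lower. CACGTG stood in a promoter window of 4 of the 11 members lower in S phase cells that had a window and of 6 of the 18 other members with a window.

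Whether the cycle differences themselves differed between the gates was tested with an interaction term, which rests on 1 LT-HSC library against 2 ST-HSC libraries. The spread behind its p-values thus comes from the ST-HSC libraries, and LT2 is assumed to vary like them. The G2/M classes were also unlike in their share of UMIs from replication genes. Its median was 0.453% in LT2, 0.174% in ST1 and 0.186% in ST2. The part of this in the differences between the gates was not tested. In G2/M cells 2 of 32 members were called, both more negative in LT-HSC, against 1.37% of all genes, 1.07% more negative and 0.303% more positive. Ctsh lay at 19.1 CPM in G2/M cells and 36.5 CPM in other cells of LT2. It lay at 32.0 against 26.6 CPM in ST1 and 45.8 against 33.9 CPM in ST2. The difference of the differences was -1.33 (SE 0.35, edgeR adjusted p = 0.0134). Ctsz lay at 72.6 against 82.9, 95 against 75.4 and 134 against 85.0 CPM (-0.73, SE 0.20, edgeR adjusted p = 0.0187). Leaving out the cells of both rules kept 117 of 120 G2/M cells in ST1, 58 of 60 in ST2 and 52 of 52 in LT2. In ST1 the 6 cells passing the neutrophil rule held Ctsh at 158 against 25.8 CPM (26 UMIs in the 6 cells). They held Ctsz at 316 against 75.1 CPM (52 UMIs). Without the cells of both rules neither was called (-0.89 and -0.37, edgeR adjusted p = 0.365 and 0.627). In S phase cells no member was called for a difference between the gates, against 0.969% of all genes (0.765% more negative and 0.204% more positive in LT-HSC); 5 members had an unadjusted p under 0.05.

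Other genes of the pathway were given by lists. Between the gates 2 of 41 other lysosome genes tested were lower in LT-HSC: Gm2a, which encodes an activator of ganglioside breakdown (-0.61, SE 0.20, edgeR adjusted p = 0.0310), and Npc1, which exports cholesterol (-0.71, SE 0.23, edgeR adjusted p = 0.0291). This stands beside 3.13% of all genes called lower. DESeq2 called 0 of the 41, and with all barcodes of LT1 edgeR called 1 higher and 3 lower. On kept cells none was called among 6 other V-ATPase subunits, 6 genes of delivery to lysosomes, 13 genes of the mTORC1 platform on the lysosome and 16 autophagy genes, and with all barcodes 1 gene of delivery was called lower. In G2/M cells 11 of 40 other lysosome genes were lower and 4 higher, with a median of -0.23, where 13.8% of all genes were lower and 17.3% higher. The counts were 5 lower and 2 higher by DESeq2, and 6 lower and 3 higher among cells of 5000 to 20000 UMIs. Ctsf, the gene of cathepsin F, was lower by -2.07 (SE 0.19, edgeR adjusted p = 4.24e-08). In S phase cells 13 of 40 were lower and 4 higher, where 18.4% of all genes were lower and 21.7% higher, and Ctsf was again lower (-0.96, SE 0.13, edgeR adjusted p = 1.44e-08). With plain totals 21 were lower and 3 higher, and DESeq2 called 4 lower and 2 higher. Igf2r, the mannose 6-phosphate receptor that sorts hydrolases to lysosomes, was higher in G2/M cells (0.86, edgeR adjusted p = 0.00157) and lower in S phase cells (-1.25, edgeR adjusted p = 3.15e-06).

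The autophagy genes had a median of -0.38 in S phase cells, where 10 of 16 were lower and none higher, against 18.4% of all genes lower and 21.7% higher. DESeq2 called 6 of the 16, all lower. Sqstm1, which encodes the cargo receptor p62, was lower by -0.78 (SE 0.11, edgeR adjusted p = 2.57e-08) and Map1lc3b, an LC3 protein of the autophagosome membrane, by -0.47 (SE 0.06, edgeR adjusted p = 2.85e-08). In G2/M cells 4 of the 16 were lower and none higher, at a median of -0.20, against 13.8% of all genes lower, and 2 were lower in the depth window. Of the mTORC1 platform, 2 genes were higher and 3 lower of 13 in S phase cells, and 2 higher and 2 lower in G2/M cells; DESeq2 called 1 higher and 1 lower in S phase cells and 1 higher in G2/M cells. Lamtor1, the anchor of the Ragulator complex, was higher in both (0.33 and 0.35, edgeR adjusted p = 0.000105 and 0.00844). Tcirg1, a V0 subunit, was higher in G2/M cells (0.44, edgeR adjusted p = 0.0340) and Atp6v1g1, of the peripheral stalk, was lower in S phase cells (-0.20, edgeR adjusted p = 0.0105), each the only call among 6 other V-ATPase subunits. DESeq2 called none of the 6 in G2/M cells.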

How the data were processed

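Per the labels, 4 libraries of sorted bone marrow cells were prepared with the Single Cell 3' v3 kit. The deposited values are raw UMI counts per gene and barcode, made by the authors with Cell Ranger 3.1.0 on mm10, per the submitters' processing notes; per the file headers the matrix software version was 3.0.2. The sources used here do not state which barcodes were kept for deposit or whether counting used strand. The genes, lists and rules were chosen with earlier results of these data known.

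Counts of kept cells were summed per library, and doublets were not called; the gate was also tested without the 5% of cells with most UMIs. Sums were tested with edgeR 4.0.16 (R 4.3.3; TMM scaling, filterByExpr, quasi-likelihood test, Benjamini-Hochberg adjustment over all genes tested, threshold 0.05), with gate as the only factor, or with cycle class and the library as a block. DESeq2 1.42.0 was an alternative. Levels are CPM on plain totals, intervals are 95% and SE are those of the fit. The intervals of fitted values include the spread between libraries, and floors (3 counts) cover counting error only. Kept libraries held 115305 to 27870823 UMIs. Libraries with the same mouse number came from the same animal, per the labels, so the numbers pair them. The deviations of LT2 and ST2 from their gate means correlated at 0.036 over 12656 genes. The LT-HSC mean includes the 22 cells of LT1, whose counting error enters this value, so it cannot show whether pairing matters. With all barcodes of LT1 the correlation was 0.060 over 12892 genes. The S phase class was an alternative to the G2/M class and its own alternatives were added after seeing the data. Members described in full were those called by gate or in G2/M cells, and in each role group the one with the highest mean CPM and the 2 with the smallest gate p of those at 5 CPM or more. This gave 16 genes, and others were named after their values were seen. Coordinates are GRCm38, from GENCODE vM21 and RefSeq. The tests were checked on simulated counts.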

Additional observations from a re-analysis of the deposited data

Results flagged for a closer look

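The G2/M difference of Ctsh differed between the gates by -1.33 on the log2 scale (LT-HSC minus ST-HSC, interaction term in edgeR, adjusted p = 0.0134): Ctsh was lower in G2/M cells of the 1 LT-HSC library and higher in those of both ST-HSC libraries. The G2/M difference of Ctsz differed by -0.729 (edgeR adjusted p = 0.0187) in the same manner. The LT-HSC side of both is 1 library, so the spread comes from the ST-HSC libraries. The G2/M cells of LT2 also had a higher median share of UMIs from replication genes (0.453%) than those of ST1 (0.174%) and ST2 (0.186%). Of 5 alternatives, 3 ended the call of Ctsh and 4 that of Ctsz. Without cells of the macrophage and neutrophil rules the values were -0.89 for Ctsh (edgeR adjusted p = 0.365) and -0.37 for Ctsz (edgeR adjusted p = 0.627). In LT2 the G2/M cells held 20 Ctsh UMIs and 76 Ctsz UMIs.

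The 39531 barcodes of LT1 that failed the cell filter held 32427 UMIs of the 33 genes, 0.241% of their 13460097 UMIs, against a floor of 2.23e-05% for 3 counts. They included 116 Ctss UMIs, or 8.62 CPM.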

How the results depend on the processing

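Of the 33 genes, 1 was called between the gates by edgeR and 0 by DESeq2, where 1 had an unadjusted p under 0.05. Over all genes edgeR called 851 and DESeq2 54 between the gates, 3696 and 2225 in G2/M cells and 4715 and 2425 in S phase cells. Leaving out each library in turn gave 0 to 2 calls, at a member median of -0.62 to 0.0088, the lowest without LT2, where only the 22 cells stood for that gate and the median of all genes was -0.38. With the mouse as a block the call of Ctss held (-1.90, edgeR adjusted p = 1.99e-10), and pairing by mouse changed no member's call. With no replicate block 2 members were called in G2/M cells and 4 in S phase cells, against 7 and 16. In G2/M cells, leaving out each library gave 4 to 11 calls and medians of -0.093 to 0.068. The G2/M median was -0.15 among cells of 5000 to 20000 UMIs and -0.15 without cells of the macrophage and neutrophil rules. With S phase cells in place of G2/M cells, 16 members were called at a median of -0.18, and Atp6ap2 turned from 0.44 to -0.026 (edgeR adjusted p = 0.819). In S phase cells DESeq2 called 6 at a median of -0.20; the median was -0.15 in the depth window, -0.24 with no filter on low counts, -0.24 with plain totals and -0.25 to -0.15 without each library. The difference between gates in G2/M cells gave 0 calls in the depth window and 0 at a G2/M share of 0.2%. It gave 0 without cells of the macrophage and neutrophil rules and 1 with plain totals. The cause was not tested.

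Depth limits LT1 most, since a gene under 26 CPM is expected below 3 counts there. Gate values of LT-HSC thus rest on 1 deep library and, for mouse 1, on 22 cells or on barcodes that mostly failed the cell filter. All cycle statements on LT-HSC rest on 1 library.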
